A study of Mus musculus with 24 samples.

Results

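Ephrins and Eph receptors were described in embryonic mouse jaws, for 10 named members: the receptors Epha3, Epha4, Epha5, Epha7, Ephb2 and Ephb3 and the ligands Efna1, Efna5, Efnb1 and Efnb2. Members were found by the gene symbol of the array platform, and each is represented by the one of its probe sets that was brightest on average over 24 arrays. Of the 10 members, 9 were measured, by 29 probe sets, among 18193 genes in all, and all 9 were among the 12811 genes tested. Ephb2 was not analysed here. The set was selected on a measured value: Epha5 was chosen by its higher level in the mutant distal mandible in these same data, so that difference is a description here and carries no test.

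The study profiled the upper jaw (maxilla) and lower jaw (mandible) of C57B6 embryos at embryonic day 14.5, each cut into a distal and a proximal end. Mutants came from crossing Wnt1cre;Tgfbr2fl/+ with Tgfbr2fl/fl mice, so that the type II TGF-beta receptor gene was deleted where Wnt1-Cre acts, in neural crest cells and their descendants. The 8 groups of 3 arrays were mutant and control distal maxilla, mutant and control proximal maxilla, mutant and control distal mandible, and mutant and control proximal mandible. Mutants were recognised by cleft palate and a calvarial defect, and the littermates are labelled only as control, with no allele stated. Whether the 3 samples of a group are separate embryos, litters or pools is not stated, and p-values here reflect no more than the spread among these samples. The Tgfbr2 probe set was not lower in mutants: it averaged 12.29 in mutant and 11.90 in control distal maxilla, 12.40 and 11.61 in proximal maxilla, 12.38 and 12.07 in distal mandible, and 12.26 and 11.93 in proximal mandible, with no overlap of genotypes in any region. No source used here names the deleted exon, so this signal does not check the genotype labels.

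Eph receptors are receptor tyrosine kinases, and their ligands, the ephrins, sit on the surface of neighbouring cells, so signalling needs contact between cells and can run into both of them. A-class ephrins are held in the membrane by a lipid anchor and B-class ephrins span it, and each class of receptor mainly binds its own class of ligand, with Epha4 binding both. In the developing face the family is known for sorting cells at boundaries, guiding neural crest cells and axons, and shaping the palate: mice without Efnb1, or without both Ephb2 and Ephb3, can have cleft palate, and mutations of human EFNB1 cause craniofrontonasal syndrome.

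The stretches of 250 bases before a RefSeq transcript start (assembly GRCm38.p6) were searched on both strands for CAGAC and its reverse complement GTCTG, the letters of the short element that SMAD proteins, which carry the TGF-beta signal to the nucleus, are known to bind. Shown are the windows of the members other than Epha5 that passed in a mutant comparison, Epha3 and Efnb1, and of Efnb2, which differed between distal and proximal ends in both jaws, each 5′ to 3′ along its gene with the matching letters in capitals. The Epha3 window is chr16:63864176-63864425 on the minus strand, the Efnb1 window chrX:99135811-99136060 on the plus strand and the Efnb2 window chr8:8661243-8661492 on the minus strand.
Epha3: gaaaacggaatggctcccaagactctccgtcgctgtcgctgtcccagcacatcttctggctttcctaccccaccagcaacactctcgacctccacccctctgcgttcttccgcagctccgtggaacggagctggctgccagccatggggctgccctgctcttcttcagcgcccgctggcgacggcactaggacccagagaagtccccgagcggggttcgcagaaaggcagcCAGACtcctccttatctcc
Efnb1: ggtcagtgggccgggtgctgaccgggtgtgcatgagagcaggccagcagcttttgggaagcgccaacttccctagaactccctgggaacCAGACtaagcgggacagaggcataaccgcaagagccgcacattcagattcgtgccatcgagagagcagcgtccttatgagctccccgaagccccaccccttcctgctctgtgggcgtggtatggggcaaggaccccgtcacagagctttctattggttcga
Efnb2: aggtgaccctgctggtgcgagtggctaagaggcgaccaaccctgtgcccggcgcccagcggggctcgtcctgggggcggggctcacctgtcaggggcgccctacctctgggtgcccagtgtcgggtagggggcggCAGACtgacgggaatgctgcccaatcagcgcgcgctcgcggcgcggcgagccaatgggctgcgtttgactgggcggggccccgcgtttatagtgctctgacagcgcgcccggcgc
Counted back from the start, the match lay at -19 for Epha3, -161 for Efnb1 and -115 for Efnb2. The window of Epha5, which lies inside the gene's annotated span and is not printed, held 0 matches. The window of Efna5, which differed between control regions, and both windows of Epha7 also held 0 and are not printed. Of the 11 windows of the 9 members, 7 held a match, as did 42.2% of 32851 windows of the same length. Both windows of Efna1 are among the 7. The windows shown were 62.8% (Epha3), 60% (Efnb1) and 72% (Efnb2) G or C, against a median of 52.4% over all windows. A match is a description of letters and no binding was measured here.

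The arrays held log2 values between 3.44 and 14.8, with a lowest array median of 6.93. Tissue marker lists differed between arrays of 1 group: 3 mutant maxilla arrays (distal 1, proximal 1 and proximal 2) had mean skeletal muscle markers of 1.16, 2.00 and 0.94, centred on all arrays, against -2.40 to -0.73 in the 6 control maxilla arrays. The same 3 arrays had cartilage marker means of -2.19, -2.31 and -2.47, against -0.02 to 1.62 in the control maxilla arrays, and nasal epithelium marker means of -0.24, -0.75 and -0.50, against 0.20 to 2.09. Calls in the maxilla that changed without these 3 arrays are given both ways. In such bulk samples, fewer cells of a type and less RNA per cell cannot be told apart. Differences below are log2 values of mutants less those of controls, or as named, ± the standard error (SE) of a limma fit over 24 arrays, and adjusted p-values are limma's after Benjamini-Hochberg adjustment over 12811 genes, with a threshold of 0.05.

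Epha5, an A-class receptor best known for mapping axons in the brain, was higher in mutants than in controls in all 4 regions by its mean. In the distal mandible it read 7.64, 7.98 and 8.24 in mutants, against 6.17, 6.86 and 6.26 in controls. Every mutant array lay above every control array there. The control arrays were all below the median of their own array, so the difference of 1.52 ± 0.24 rests on a low control signal. No background level was estimated. That difference is the value by which the gene was chosen. In the proximal mandible it read 7.89, 8.53 and 8.49 in mutants, against 6.61, 7.04 and 7.29 in controls. Again the groups did not overlap, and Epha5 rose by 1.32 ± 0.24, or 2.5-fold (adjusted p = 0.00535, limma). The call was kept in all 16 alternative settings. Deviations of same-numbered distal and proximal mandible arrays from their group means correlated, at 0.459 to 0.537 in controls and 0.349 to 0.436 in mutants. The p-value here is therefore not independent of the arrays by which Epha5 was chosen. In the proximal mandible 4.34% of all genes passed and 1.27% were higher, and Epha5 was the 1 of 9 members to do so.

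In the proximal maxilla, Epha5 read 8.14, 8.27 and 8.14 in mutants, against 7.01, 7.53 and 7.17 in controls. The groups stood apart, and the rise of 0.95 ± 0.24 passed (adjusted p = 0.00786, limma). Without the 3 mutant maxilla arrays named above, 1 mutant array remained here, assumed to vary like the other groups, and the difference was 0.90 with an adjusted p of 0.267 (limma). In the distal maxilla it read 8.04, 8.34 and 8.53 in mutants, against 7.46, 8.11 and 7.49 in controls. Control array 2 overlapped the mutants, and the difference of 0.62 ± 0.24 did not pass (adjusted p = 0.429, limma). It passed in 1 of 16 alternative settings, array weights, at 0.88 (adjusted p = 0.0173, limma).

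Ordered by mean, the 4 mutant groups of Epha5 (8.30 in the proximal mandible, 8.30 in the distal maxilla, 8.18 in the proximal maxilla and 7.95 in the distal mandible) all stood above the 4 control groups (7.69 in the distal maxilla, 7.24 in the proximal maxilla, 6.98 in the proximal mandible and 6.43 in the distal mandible). Neighbours in this order overlapped at all 7 steps. By this probe set the mutant groups spanned a narrower range of means than the control groups, which is a description with no test. The low end of the controls is the group by which Epha5 was chosen. Another Epha5 probe set gave ranges of similar width, 7.40 to 7.93 in mutants and 6.36 to 6.91 in controls. Averaged over regions, the difference was 1.10 ± 0.17, and the mandible minus maxilla difference of the mutant effect was 0.64 ± 0.24, both given without a test because they contain the distal mandible.

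**Figure D1:**
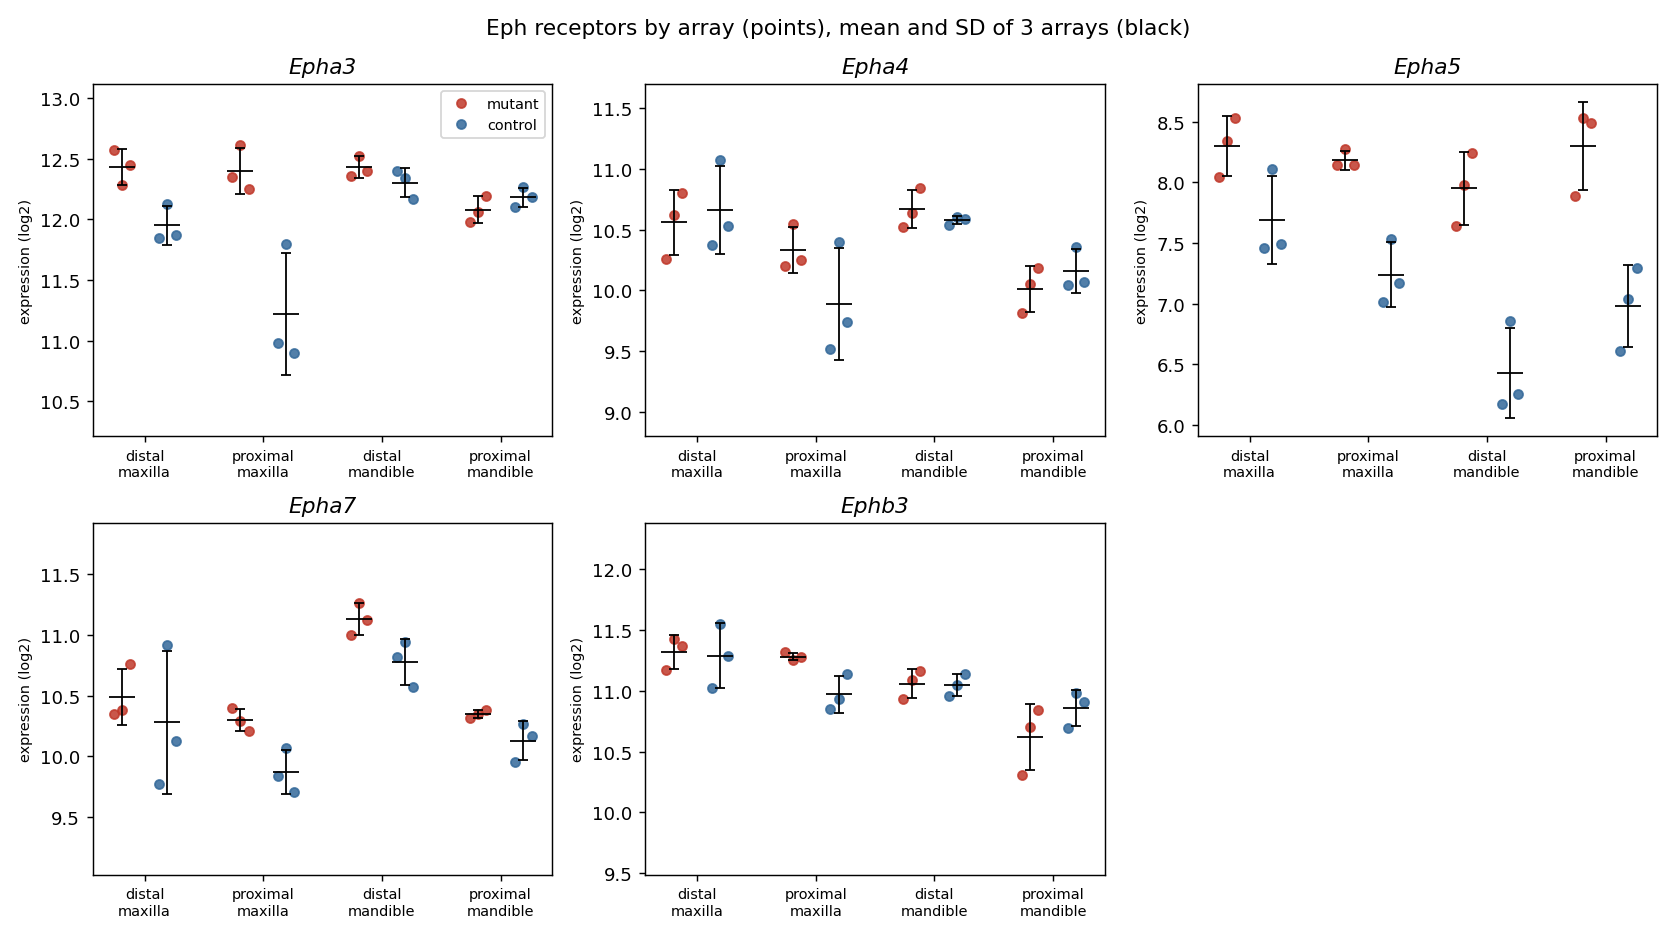
Log2 expression of 5 Eph receptors by array (vertical axis), with mutant (red) left of control (blue) in each of 4 regions (horizontal axis); points are arrays, and the black mark and bar are the mean and SD of 3 arrays. Each panel has its own range of the same height. Epha5 in mutants sat at 7.64 to 8.53 against 6.17 to 8.11 in controls, and Epha3 separated most in the proximal maxilla.

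Among the 4 probe sets of Epha5, 3 gave differences of similar size. In the order distal maxilla, proximal maxilla, distal mandible and proximal mandible, the main one gave 0.62, 0.95, 1.52 and 1.32, the second 1.10, 1.13, 1.23 and 1.43, and the third 0.89, 0.98, 0.99 and 1.57. The dim probe set, with a mean of 5.17 over 24 arrays, gave 0.20, 0.23, 0.15 and 0.05. The mean of all 4 probe sets gave 0.97 for Epha5 in the distal mandible and 0.27 for the mandible minus maxilla difference. The region with the largest difference therefore depended on the probe set: it was the distal mandible by the main one, and the proximal mandible by the next pair.

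**Figure D2:**
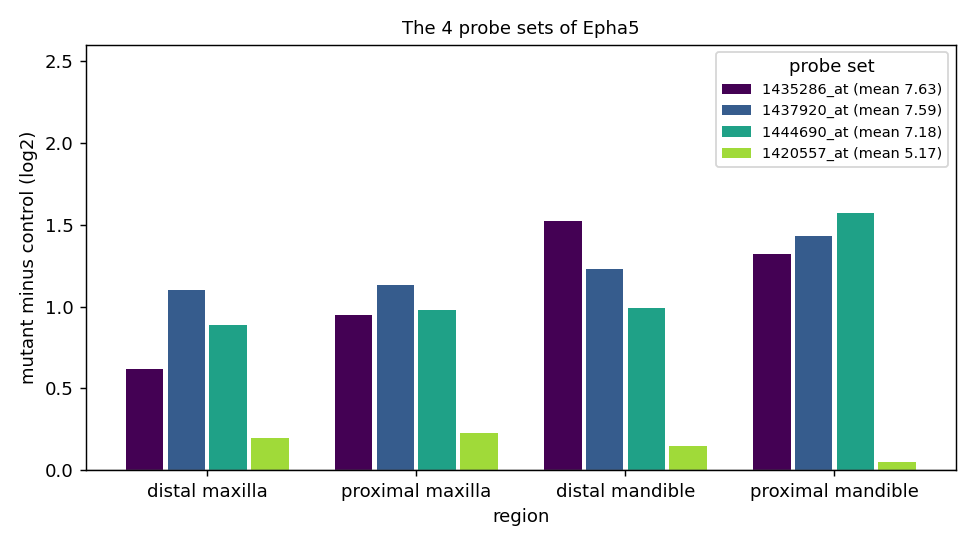
Mutant minus control difference (log2, vertical axis) of the 4 probe sets of Epha5 in 4 regions (horizontal axis); each bar is the difference of 2 means of 3 arrays, and the legend gives each probe set's mean over 24 arrays. The 3 brighter probe sets lay between 0.62 and 1.57, and the dim one between 0.05 and 0.23.

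Tissue markers moved with genotype in the mandible as well. In the distal mandible the 20 skeletal muscle markers had a mean level of 8.74 to 9.61 in mutants and 10.17 to 11.06 in controls, with 15 to 18 of 20 above the array median in mutants and 19 in controls. The 19 cartilage markers had centred means of -1.91, 0.22 and -1.73 in mutants, against 0.73, 0.90 and -0.34 in controls. In the proximal mandible the muscle markers had a mean level of 9.54 to 10.13 in mutants and 10.14 to 11.60 in controls, while the cartilage markers there lay the other way, at 0.83, 1.35 and 0.99 in mutants, against 0.43, 0.69 and -1.12 in controls. Their part in the Epha5 difference was not tested.

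The 5 tested genes whose values followed Epha5 most closely over 24 arrays, leaving out members and sex-linked genes, were Abhd4 (Pearson r = 0.863), Aldh6a1 (0.859), C1s1 (0.840), Cnrip1 (0.830) and Pdcd4 (0.824). All points share the same 24 arrays and the genotype difference, so these are descriptions. C1s1 had mutant minus control differences of 0.94, 1.22, 0.69 and 1.05 in distal maxilla, proximal maxilla, distal mandible and proximal mandible. The other members followed Epha5 less closely, with r from -0.036 for Efnb2 to 0.445 for Efnb1.

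Epha3, an A-class receptor present in mesenchyme of many embryonic tissues, rose in the mutant maxilla at its proximal end. It read 12.35, 12.61 and 12.25 in mutant proximal maxilla, against 10.98, 11.80 and 10.90 in controls. The groups did not overlap, and control array 2 lay nearest to the mutants. The difference was 1.18 ± 0.17, or 2.26-fold (adjusted p = 0.00028, limma), and all 4 probe sets of Epha3 gave 1.18 to 1.47. The call was kept in 15 of 16 alternative settings. It was lost in a fit of only the arrays compared (adjusted p = 0.0529, limma), and without the 3 mutant maxilla arrays the difference was 1.02 (adjusted p = 0.0484, limma).

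In the distal maxilla Epha3 read 12.57, 12.28 and 12.45 in mutants, against 11.85, 12.13 and 11.87 in controls. The groups stood apart here too, but the difference of 0.48 ± 0.17 did not pass (adjusted p = 0.348, limma). In the mandible the genotypes overlapped: the distal end read 12.36, 12.52 and 12.40 in mutants, against 12.40, 12.34 and 12.17 in controls. The proximal mandible read 11.98, 12.06 and 12.19 in mutants, against 12.10, 12.27 and 12.18 in controls. The differences were 0.12 ± 0.17 and -0.11 ± 0.17 (adjusted p = 0.827 and 0.787, limma). A test of the difference between jaws gave a mutant effect lower by -0.82 ± 0.17 in the mandible than in the maxilla (adjusted p = 0.013, limma). This was the 1 of 8 members called, against 8.26% of all genes. Without the 3 mutant maxilla arrays it was -0.71 (adjusted p = 0.111, limma). The lowest of the 8 group means of Epha3 was control proximal maxilla (11.22 ± 0.50, SD, n = 3), and it was the 1 group that did not overlap its neighbour in the order of means.

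In the proximal maxilla, 3 of 9 members rose in mutants and 0 fell, where 23.3% of all genes passed and 12.2% rose. Besides Epha3 and Epha5 this was Efnb1, described with the ligands. The median difference of the 9 members was 0.31, against 0.01 over all genes tested, and the 3 mutant and 3 control arrays stood apart for 6 of 9 members, against 36.2% of all genes. Mutant and control proximal maxilla also differed in marker lists. The 15 measured nasal markers had centred means of -0.75, -0.50 and 1.46 in mutants, against 2.09, 2.07 and 1.98 in controls, with mean levels of 6.70 to 8.92 and 9.44 to 9.55. The 18 neuron markers had -0.14, -0.79 and 1.60 in mutants, against 2.31, 2.15 and 2.10 in controls, with mean levels of 7.67 to 10.06 and 10.57 to 10.77. The 18 keratinocyte markers had 0.40, 0.36 and 0.22 in mutants, against -1.65, -1.30 and -0.06 in controls, with mean levels of 10.49 to 10.67 and 8.62 to 10.21. Mutant array 3 lay closest to the controls in its nasal, neuron and cartilage means (1.46, 1.60 and 0.61). Its muscle and keratinocyte means (-0.19 and 0.22) lay above those of all 3 controls (-1.92 to -0.73 and -1.65 to -0.06). That array read 12.25 for Epha3 and 8.14 for Epha5, above all 3 control arrays for both genes. The part of these tissues in the differences was not tested.

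**Figure D3:**
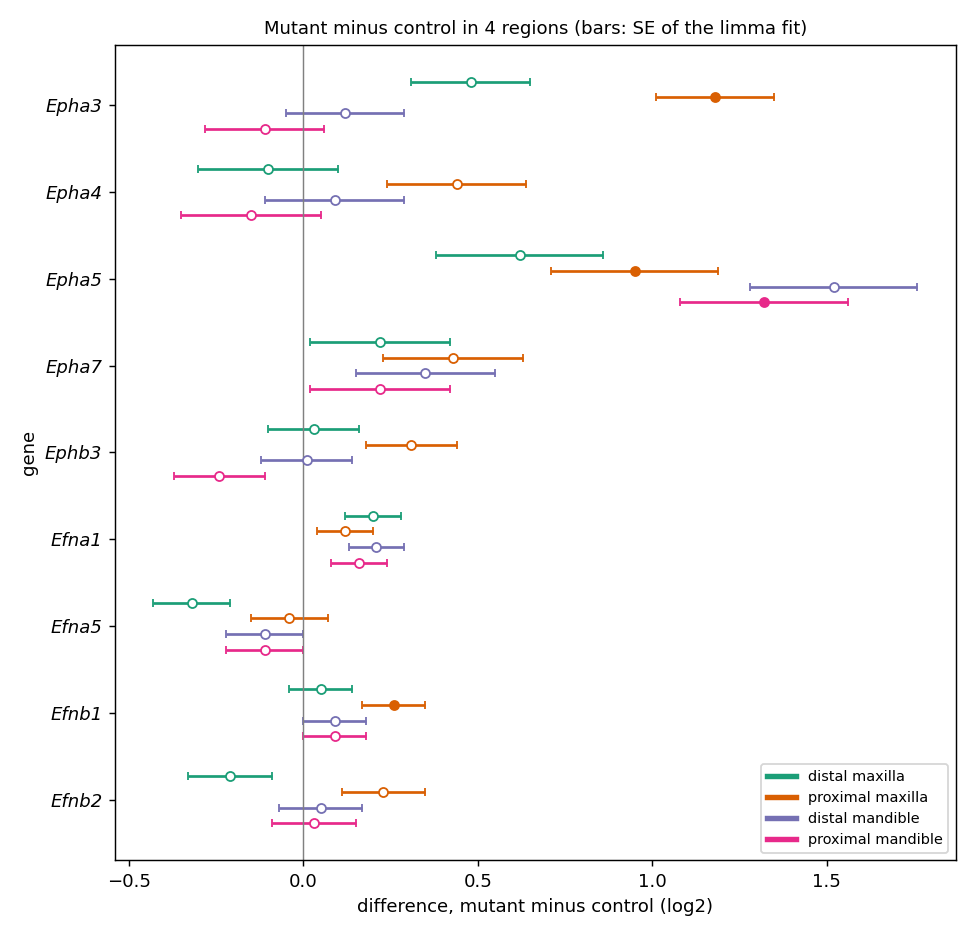
Mutant minus control difference (log2, horizontal axis) of 9 members (vertical axis) in 4 regions (colours); bars are the SE of the limma fit, and filled points passed an adjusted p of 0.05. The open point of Epha5 in the distal mandible was not tested. Filled points are Epha3, Epha5 and Efnb1 in the proximal maxilla and Epha5 in the proximal mandible.

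Epha4, which binds ephrins of both classes, did not pass in any mutant comparison. Its differences were -0.10, 0.44, 0.09 and -0.15 in distal maxilla, proximal maxilla, distal mandible and proximal mandible, and mutants and controls overlapped in all 4. Its 5 probe sets disagreed: in the distal maxilla they gave -0.10 to 0.55, and in the proximal mandible -0.15 to -0.73. Within control proximal maxilla the arrays read 9.52, 10.40 and 9.74, so that the spread within the group (SD 0.46) was about the size of the difference.

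Epha7, an A-class receptor with a role in closing the neural tube, had a higher mean in mutants in every region by its brightest probe set. It passed in none. The differences were 0.22, 0.43, 0.35 and 0.22 (± 0.20 each) in distal maxilla, proximal maxilla, distal mandible and proximal mandible, with adjusted p-values of 0.808, 0.13, 0.492 and 0.587 (limma). In the distal mandible it read 11.00, 11.26 and 11.12 in mutants, against 10.82, 10.94 and 10.57 in controls. The groups stood apart there, in the proximal maxilla and in the proximal mandible. In the distal maxilla the mutant arrays, at 10.35, 10.38 and 10.76, lay within the range of the control arrays, at 9.77, 10.92 and 10.13. The other Epha7 probe sets gave differences of -0.00, 0.20 and 0.33 in the distal mandible.

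Ephb3, the B-class receptor among the measured members, showed differences of 0.03, 0.31, 0.01 and -0.24 (± 0.13 each) in the same order of regions. In the proximal maxilla it read 11.32, 11.25 and 11.28 in mutants, against 10.85, 10.93 and 11.14 in controls. Those groups did not overlap, and the adjusted p was 0.106 (limma). In the proximal mandible it read 10.31, 10.70 and 10.84 in mutants, against 10.69, 10.98 and 10.91 in controls, which overlapped (adjusted p = 0.337, limma).

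Efna1, an A-class ligand known from blood vessels, had small differences of 0.20, 0.12, 0.21 and 0.16 (± 0.08 each) in distal maxilla, proximal maxilla, distal mandible and proximal mandible. In the distal mandible it read 9.89, 9.90 and 9.86 in mutants, against 9.72, 9.58 and 9.73 in controls. The groups stood apart there, in the distal maxilla and in the proximal mandible, and none of the 4 passed (adjusted p = 0.435, 0.285, 0.258 and 0.271, limma).

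Efna5, an A-class ligand that repels growing axons, was the 1 member with lower means in mutants in all 4 regions, at -0.32, -0.04, -0.11 and -0.11 (± 0.11 each). In the distal maxilla it read 11.03, 11.18 and 11.27 in mutants, against 11.40, 11.62 and 11.41 in controls. The groups did not overlap, and the difference did not pass (adjusted p = 0.323, limma). In the other 3 regions the genotypes overlapped.

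Efnb1, the X-linked B-class ligand, read 10.24, 10.11 and 10.08 in mutant proximal maxilla, against 9.77, 10.07 and 9.79 in controls. The groups came as close as 10.08 in mutants and 10.07 in controls, and the rise of 0.26 ± 0.09 lay just inside the threshold (adjusted p = 0.0424, limma). The call was kept in 7 of 16 alternative settings, and was lost without control proximal maxilla 1 or 3 or mutant proximal maxilla 1 or 2 (adjusted p = 0.167, 0.151, 0.191 and 0.0859, limma), and without the 3 mutant maxilla arrays (0.20, adjusted p = 0.602). In the other regions the differences were 0.05 (distal maxilla), 0.09 (distal mandible) and 0.09 (proximal mandible), with overlapping groups. The other Efnb1 probe sets gave 0.10 and 0.08 in distal maxilla, and 0.22 and 0.29 in proximal maxilla. In the mandible their sign varied, at 0.01 and -0.09 distally and -0.10 and -0.06 proximally.

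Efnb2, a B-class ligand and a mark of arteries, had differences of -0.21, 0.23, 0.05 and 0.03 (± 0.12 each) in distal maxilla, proximal maxilla, distal mandible and proximal mandible. In the proximal maxilla it read 11.56, 11.71 and 11.77 in mutants, against 11.30, 11.55 and 11.47 in controls. All mutant arrays lay above all control arrays, narrowly, and the adjusted p was 0.158 (limma). The mean of the 17 endothelial markers was 9.37 to 9.70 in mutant and 9.16 to 9.23 in control proximal maxilla, and their part was not tested.

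**Figure D4:**
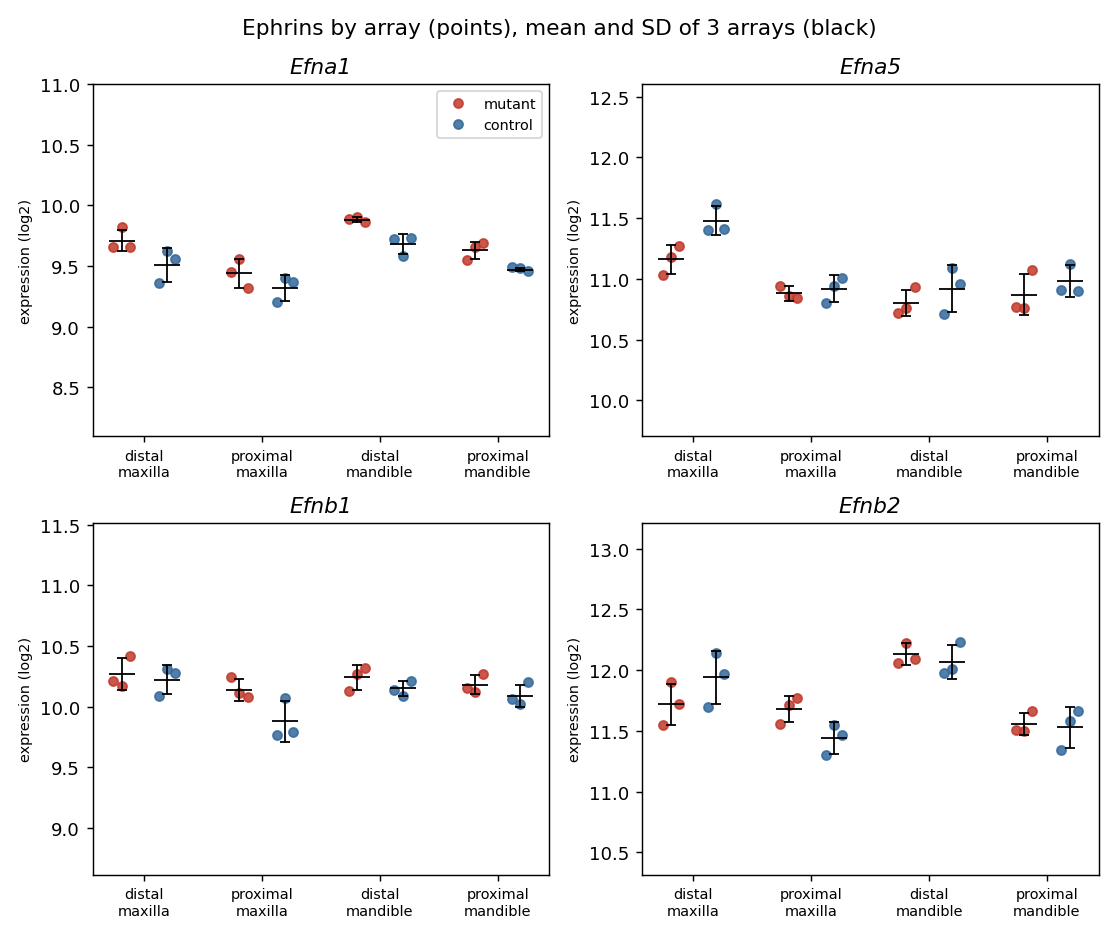
Log2 expression of 4 ephrins by array (vertical axis), with mutant (red) left of control (blue) in each of 4 regions (horizontal axis); points are arrays, and the black mark and bar are the mean and SD of 3 arrays. Each panel has its own range of the same height. Efna5 in distal maxilla was 11.03 to 11.27 in mutants and 11.40 to 11.62 in controls, with no overlap.

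No member passed in the distal maxilla, where 0.195% of all genes did. Of the 9 members, 4 had an unadjusted p under 0.05 there, as did 9.19% of all genes (limma). In the distal mandible 0 of the 8 members other than Epha5 passed, with 0.742% of all genes called, and 1 had an unadjusted p under 0.05, as did 12.6% of all genes (limma). The distal minus proximal difference of the mutant effect gave 0 calls among those 8 members and 0% of all genes, and 0 of the 8 had an unadjusted p under 0.05, against 7.67% of all genes (limma). For the average of regions, 0 of those 8 passed and 1.09% of all genes did, and 3 had an unadjusted p under 0.05, against 16.7% of all genes (limma). Epha3 came nearest there, at 0.42 ± 0.10 (adjusted p = 0.106, limma).

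In control jaws, 1 member other than Epha5 was called between distal ends, 1 between proximal ends and 1 along the mandible. Along the maxilla 5 of 9 were called, and 0 without control distal maxilla 2. Between distal ends, 1 of the 8 members other than Epha5 was lower in the mandible and 0 were higher, against 8.81% of all genes called and 5.73% lower. Efna5 read 10.71, 11.09 and 10.96 in control distal mandible, against 11.40, 11.62 and 11.41 in control distal maxilla. The groups did not overlap, and Efna5 was lower in the mandible by -0.56 ± 0.11 (adjusted p = 0.0047, limma), kept in all 16 alternative settings. Skeletal muscle markers separated the same arrays, with centred means of 1.68, 0.79 and 1.66 in control distal mandible, against -1.59, -2.40 and -1.45 in control distal maxilla. Nasal markers were at -0.87, -0.76 and -0.95 in the mandible, against 1.63, 0.20 and 1.44 in the maxilla, and the part of either was not tested. Epha5 differed by -1.26 ± 0.24. That value uses the control distal mandible arrays by which Epha5 was chosen and is given without a test. Between proximal ends, 1 of 9 members passed, where 33.6% of all genes did. Epha3 was higher in control proximal mandible (12.10, 12.27 and 12.18) than in control proximal maxilla (10.98, 11.80 and 10.90), by 0.96 ± 0.17 (adjusted p = 0.00027, limma), kept in all 16 settings. The nasal markers read 6.56 to 6.71 on average in control proximal mandible and 9.44 to 9.55 in control proximal maxilla, and their part was not tested.

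Along the maxilla, 5 of 9 members were higher at the distal end of controls and 0 lower, where 8.42% of all genes passed and 5.09% were higher. All 9 members had a positive difference, with a median of 0.45 against 0.02 over all genes, and 4 of 9 had groups that stood apart, against 32.7% of all genes. Efna5 read 11.40, 11.62 and 11.41 distally, against 10.80, 10.94 and 11.01 proximally, a difference of 0.56 ± 0.11 (adjusted p = 0.00618, limma). Efnb2 read 11.70, 12.14 and 11.97 distally, against 11.30, 11.55 and 11.47 proximally, a difference of 0.49 ± 0.12 (adjusted p = 0.0156, limma). Both ligands were higher in each distal array than in any proximal one. Epha3 differed by 0.73 ± 0.17 (adjusted p = 0.0141), Epha4 by 0.77 ± 0.20 (adjusted p = 0.0262) and Efnb1 by 0.35 ± 0.09 (adjusted p = 0.025, limma). The groups of Epha4 overlapped, and the mean of its probe sets gave 0.40 (adjusted p = 0.341, limma). Ephb3, at 0.31 ± 0.13, did not pass (adjusted p = 0.17), but did with the replicate number as a block (adjusted p = 0.0343, limma).

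Without control distal maxilla 2, 0 of 9 members passed here, and 116 of all 12811 genes did, against 1079 with that array. That array was the highest of its 3 for 9 of 9 members, and for 38.4% of all genes tested. Its nasal marker mean was 0.20, against 1.63 and 1.44 in arrays 1 and 3. Control distal maxilla 1 was the lowest of the 3 for 9 of 9 members, and for 36.3% of all genes. Without control proximal maxilla 1, 1 member passed, and without control proximal maxilla 3, 2 members did. All genes called were then 167 and 626. The keratinocyte markers were 10.55 to 11.25 on average in control distal maxilla and 8.62 to 10.21 in control proximal maxilla, and their part was not tested.

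Along the mandible, 1 of the 8 members other than Epha5 passed, where 5.78% of all genes did and 2.44% were higher distally. Efnb2 read 11.98, 12.01 and 12.23 in control distal mandible, against 11.34, 11.58 and 11.66 in control proximal mandible. The groups stood apart, by 0.54 ± 0.12 (adjusted p = 0.00841, limma). The call was lost without control distal mandible 3 (0.47, adjusted p = 0.0573) or control proximal mandible 1 (0.45, adjusted p = 0.0664, limma). Osteoblast markers separated the same arrays, at -0.36, -0.43 and -0.38 in control distal mandible, against 1.39, 1.00 and 0.90 in control proximal mandible. Keratinocyte markers were at 0.38, -0.34 and 0.96 distally, against -1.15, -1.33 and -0.79 proximally, and the part of either was not tested. Epha7 differed by 0.65 ± 0.20 with groups that did not overlap. It did not pass (adjusted p = 0.0651, limma), but did with the replicate number as a block (adjusted p = 0.0342, limma). Efna5 differed by -0.06 ± 0.11 between the ends of the mandible, and whether this differs from its 0.56 in the maxilla was not tested.

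**Figure D5:**
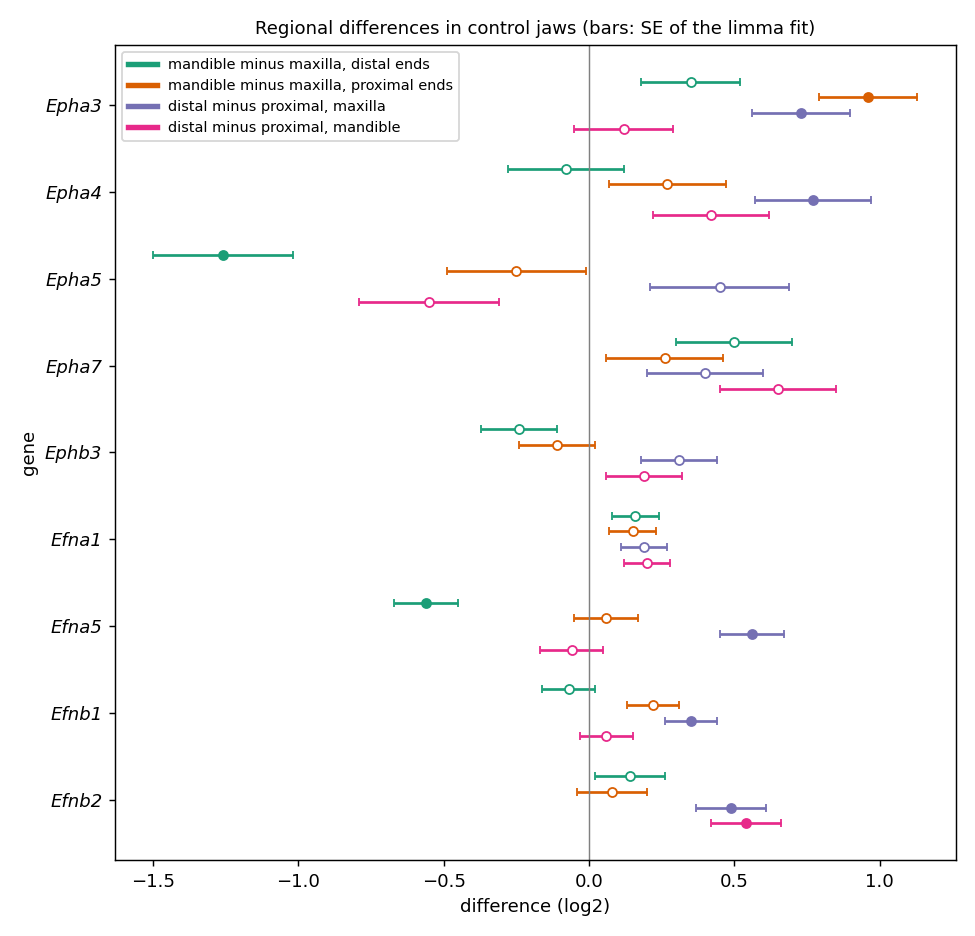
Differences between regions of control jaws (log2, horizontal axis) for 9 members (vertical axis), as mandible minus maxilla at each end and distal minus proximal end in each jaw (colours); bars are the SE of the limma fit, and filled points had an adjusted p under 0.05. All 9 distal minus proximal differences in the maxilla were above 0, and the lowest value in the plot is Epha5 at -1.26 between distal ends. That point is filled but carries no test, because it uses the control distal mandible arrays by which Epha5 was chosen.

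Of the other 12 Eph and ephrin genes, 10 were tested, and Epha6 and Epha8 lay below the filter. In the proximal maxilla 2 rose and 2 fell in mutants, where 23.3% of all genes passed. Ephb4, the receptor of veins, rose by 0.47 ± 0.10 (adjusted p = 0.00235), and the ligand Efnb3, known from the nervous system midline, by 0.47 ± 0.11 (adjusted p = 0.00706, limma). Ephb1, a receptor of axons, read 8.23, 8.38 and 9.41 in mutants, against 9.62, 9.83 and 9.51 in controls, and fell by 0.98 on the log2 scale (adjusted p = 0.00586, limma). The A-class ligand Efna3 read 8.34, 8.53 and 9.02 in mutants, against 9.32, 9.20 and 9.47 in controls, and fell by 0.70 (adjusted p = 0.00424, limma). For both, mutant array 3 was the nearest to the controls, as it was for the nasal and neuron markers. The part of these tissues was not tested. Without the 3 mutant maxilla arrays, which leaves mutant array 3 alone, none of these 4 calls held: Ephb1 was at -0.25 (adjusted p = 0.705), Efna3 at -0.30 (0.439), Ephb4 at 0.36 (0.281) and Efnb3 at 0.29 (0.485, limma). Leaving out mutant proximal maxilla 1 also ended the call of Ephb1 (-0.76, adjusted p = 0.0506, limma). In the other 3 regions 0 of 10 passed, with 0, 1 and 0 at an unadjusted p under 0.05 in distal maxilla, distal mandible and proximal mandible, against 9.19%, 12.6% and 19.5% of all genes (limma). In controls, Ephb1 was lower in proximal mandible than in proximal maxilla by -1.34 ± 0.23 (adjusted p = 0.000274) and Efna3 by -0.89 ± 0.16 (adjusted p = 0.000301, limma). These were 2 of 5 calls among the 10, with Epha1 lower and Epha2 and Ephb4 higher, where 33.6% of all genes passed. Along the control maxilla Epha2, Ephb4 and Efnb3 were higher distally, where 8.42% passed. All were lost without control distal maxilla 2 (adjusted p = 0.132, 0.0969 and 0.199, limma). Epha1 was higher distally along the control mandible (5.78% passed), and Efna3 lower in the mandible between distal ends (8.81%). Both were lost in left-out fits (adjusted p up to 0.14 and 0.108, limma).

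Regulators and effectors of the family were taken from a list of 41 genes, of which 39 were tested. In the distal mandible 1 fell and 0 rose, where 0.742% of all genes passed, and in the proximal mandible 2 fell and 1 rose, where 4.34% did. The gene that fell in both was Spsb4, which encodes a substrate adaptor of a ubiquitin ligase reported to act on Ephb2. It read 7.70, 8.13 and 7.83 in mutant distal mandible, against 8.91, 9.16 and 8.70 in controls. In the proximal mandible it read 7.69, 8.17 and 8.05 in mutants, against 8.98, 8.88 and 9.22 in controls. Every mutant array lay below every control array at both ends, by -1.04 ± 0.15 and -1.06 ± 0.15 (adjusted p = 0.00203 and 0.0013, limma), each kept in all 16 alternative settings. In the distal maxilla it averaged 7.85 in mutants and 8.17 in controls, a difference that did not pass. Groups stood apart there too (7.70 to 8.08 and 8.11 to 8.26), as in the proximal maxilla (8.11 to 8.59 and 8.65 to 8.79). For the average of regions Spsb4 was the 1 of 39 called, where 1.09% of all genes passed. That call was lost without control replicate 1 or 2 or mutant replicate 2 (adjusted p = 0.079, 0.0647 and 0.0505, limma). The mutant effect on Spsb4 was lower in the mandible than in the maxilla by -0.67 ± 0.15 (adjusted p = 0.0178, limma), kept in 32 of 33 settings. The exception was without the 3 mutant maxilla arrays (-0.59). Between jaws, the mutant effect was higher in the mandible for 1 of the 39 and lower for 3, where 8.26% of all genes passed. Besides Spsb4 these were Adam10, Fyn and Grip2, each lost in several settings. With the replicate number as a block, Adam10 (0.26), Arhgef16 (0.36) and Arhgef26 (0.41) also passed in the distal mandible (adjusted p = 0.0407, 0.0472 and 0.0489, limma).

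The other calls in the proximal mandible were Rgs3, whose protein binds B-class ephrins, at 0.53 ± 0.11 (adjusted p = 0.0144) and Arhgef15, linked to Ephb2, at -0.52 ± 0.11 (adjusted p = 0.0129, limma). Both calls were lost in a fit of only the arrays compared (adjusted p = 0.121 and 0.133, limma). They were also lost without control proximal mandible 3 (0.0896 and 0.073) or mutant proximal mandible 1 (0.0629 and 0.0578, limma). In the proximal maxilla 3 of 39 rose and 3 fell, where 23.3% of all genes passed. The largest were Grb7, an adaptor of receptor tyrosine kinases (-1.08 ± 0.36, adjusted p = 0.0352), Fyn, a Src-family kinase (0.70 ± 0.14, adjusted p = 0.00242), Kalrn (0.44 ± 0.11, adjusted p = 0.00955), and Spsb4 (-0.43 ± 0.15, adjusted p = 0.049, limma, kept in 6 of 16 settings). Without the 3 mutant maxilla arrays Fyn was at 0.45 and passed (adjusted p = 0.0353), while Grb7 was at -0.12 (adjusted p = 0.912), Kalrn at 0.33 (0.403) and Spsb4 at -0.63 (0.176, limma). The remaining calls there, Pick1 and Abl1, were then at -0.23 (adjusted p = 0.455) and 0.21 (0.234, limma). In the distal maxilla 0 of 39 passed, with 3 at an unadjusted p under 0.05, against 9.19% of all genes (limma). In proximal maxilla, distal mandible and proximal mandible 13, 13 and 7 of 39 had one, against 34.8%, 12.6% and 19.5% of all genes (limma). The median differences of the list were -0.03, 0.04, 0.08 and -0.01 in distal maxilla, proximal maxilla, distal mandible and proximal mandible, against -0.01, 0.01, 0.03 and -0.04 over all genes.

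Between jaws in controls, 12 of the 39 were higher and 8 lower in the proximal mandible than in the proximal maxilla, where 33.6% of all genes passed. The largest were Grb7 (-2.04 ± 0.36), Arhgef16 (-0.92 ± 0.11), Chn2, a Rac inhibitor (0.92 ± 0.18), and Fyn (0.84 ± 0.14). Between distal ends 1 was higher and 1 lower, Spsb4 (0.75 ± 0.15) and Arhgef26 (-0.66 ± 0.15), where 8.81% of all genes passed. Along the maxilla, where 8.42% of all genes passed, 3 were higher distally and 3 lower. Among them were Vav3 (0.93 ± 0.28) and Grip1, a scaffold of B-class ephrins (-0.65 ± 0.18). The call of Vav3 was lost without any 1 of the arrays compared (adjusted p = 0.0524 to 0.235, limma). That of Grip1 was lost without any 1 of them but control distal maxilla 3 (adjusted p = 0.0559 to 0.158, limma). Along the mandible, where 5.78% passed, 2 were higher distally and 7 lower, led by Chn2 (-0.90 ± 0.18), Arhgef16 (0.78 ± 0.11) and Chn1, a Rac inhibitor that acts after Epha4 (-0.65 ± 0.11). The call of Chn2 there was lost without control proximal mandible 1 (-0.77, adjusted p = 0.0513, limma).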

How the data were processed

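Log2 expression values per probe set were deposited by the authors, 1 column for each of 24 arrays (Affymetrix mouse genome array, from 5 µg of total RNA per sample, per the labels). The submitters' processing notes name RMA and Partek 6.6, with settings not given in the sources used here. That the deposited values are log2 was taken from their range. Changes of dim genes are understated in such values. Of 45101 probe sets, 64 array controls were left out, 34945 had 1 gene symbol in the platform annotation, 932 several and 9160 were unnamed here. Entrez identifiers matched a RefSeq table (GRCm38.p6) for 34741, with 0 symbols renamed. The probe set with the highest mean stood for a gene. Genes above their array's median in at least 3 of 24 arrays were tested (12811). All 9 measured members passed, 8 of them above the median in 24 arrays and Epha5 in 20, with 0 of 3 control distal mandible arrays.

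limma 3.58.1 (R 4.3.3) fitted 8 group means (lmFit, eBayes, two-sided). The average of regions compared 3 mutant with 3 control units, each the mean of the 4 arrays of 1 genotype with 1 replicate number. Groups share replicate numbers, with no stated meaning. Deviations of same-numbered arrays from their group means correlated above 0.1 in 58 of 84 pairs (-0.27 to 0.695). For 5 of 8 comparisons of single groups every pair did: mutant with control in both ends of the mandible, and in controls the proximal ends of both jaws and the ends within each jaw. There the numbers were taken to pair samples. The fit with the replicate number as a block is given beside results of members, other than Epha5, whose call it changes. Among the other listed genes, the block also added Rhoa in the mutant comparison of the proximal mandible. Between control proximal ends it added Arhgef26, Efna2, Rock1, Sdcbp, Sipa1l1 and Yes1, and along the control maxilla Arhgef26, Efna2 and Vav2. The median SE was 0.106 (log2), limited by the number of arrays. The fits were tested on simulated data. Members, gene lists, marker lists and rules were chosen with earlier results of these data known. Named genes are the members, other family genes that passed, up to 4 listed regulators with the largest change per comparison, and the 5 genes most like Epha5. Listed genes whose call changed with the replicate block in the paired comparisons are named too. Alternatives covered the filter, probe set summary, normalization, arrays in the fit, blocks, array weights and left-out arrays. Ephb2 is not analysed here.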

Additional observations from a re-analysis of the deposited data

Results flagged for a closer look

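The mutant minus control difference of Epha3 differed between jaws by -0.82 ± 0.17 (mandible minus maxilla, adjusted p = 0.013, limma), which is why it is given here. It was 0.48 and 1.18 at the distal and proximal ends of the maxilla, and 0.12 and -0.11 at those of the mandible. Over 33 alternative settings it ranged from -1.01 to -0.71 and passed in 32. The exception left out 3 mutant maxilla arrays with high muscle and low cartilage and nasal markers (-0.71, adjusted p = 0.111), and the part of these tissues was not tested.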

How the results depend on the processing

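Counts of members called were 0 of 9 (distal maxilla), 3 of 9 (proximal maxilla), 0 of 8 (distal mandible) and 1 of 9 (proximal mandible) for mutant minus control. With array weights they were 1 in distal maxilla, 8 in proximal maxilla and 2 in proximal mandible. In controls they were 6 for mandible minus maxilla between distal ends, 2 between proximal ends and 4 for distal minus proximal in the mandible. All genes called with weights were 564, 6205 and 1693 in those mutant comparisons, against 25, 2984 and 556 without. In those of controls they were 4981, 5742 and 1779, against 1129, 4302 and 740. With only the arrays compared, the count of members was 1 in proximal maxilla, and in controls 1 along the maxilla and 2 along the mandible. All genes called were then 761, 269 and 749, against 2984, 1079 and 740. Leaving out the 3 mutant maxilla arrays left 1 array in mutant proximal maxilla, and no counts are given for that fit. For the average of regions, the mean of the regional contrasts of 24 arrays gave 3 members, and 2521 of all genes against 140. That setting fits single arrays in place of the averaged units, so the 2 fits differ in more than the arrays used. Quantile normalization and a random block of genotype and number each gave 2 for mandible minus maxilla between proximal ends, the random block gave 3 along the control mandible, and the mean of all probe sets gave 3 along the control maxilla. Leaving out 1 array gave 0 to 7 members along the control maxilla, 0 to 1 along the control mandible and 1 to 3 between proximal ends of controls. The cause of these changes was not tested. Epha5's distal minus proximal difference of the mutant effect was -0.07, was 0.02 without the 3 mutant maxilla arrays, and ranged from -0.17 to 0.04 when 1 array was left out.

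With the replicate number as a block, 6 members were called in proximal maxilla, 2 for the difference between jaws and 3 along the control mandible. Calls among all 12811 genes also rose with the block, from 2984 to 4025, from 1058 to 1997 and from 740 to 1193. Member counts for controls between distal ends and along the mandible include Epha5, whose choice used the control distal mandible arrays. Among the other 8 members they were 5 and 3 with array weights, and 2 along the mandible with the replicate block, the random block or only the arrays compared. Among settings of single genes, 1791 kept direction and side of the threshold, 41 passed only under the alternative, 33 were lost, 5 changed sign and 2 values without a test moved by more than the spread between arrays. Signals near the array median, as for Epha5 in control distal mandible, limit how large a difference can be read.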
